A study of Mus musculus with 12 samples.

Results

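The clustered protocadherins are 3 neighbouring families of cell-surface genes, called alpha (Pcdha), beta (Pcdhb) and gamma (Pcdhg), and 53 of them were followed in CA1 tissue of the mouse hippocampus after myocardial infarction. Members were the protein-coding genes with a symbol of these families and a mean of at least 10 counts over the 12 libraries. The rule took 53 of the 57 protein-coding genes annotated in the families, which were 12 of 14 in the alpha cluster, 21 of 22 in the beta cluster and 20 of 21 in the gamma cluster, among 48709 genes in the count files. In the MI group (6 libraries) a coronary artery had been tied, and in the Sham group (6 libraries) the mice had surgery without the ligation. The operation was on the heart, and the CA1 field was dissected from the brain and its polyadenylated RNA sequenced as single reads of 50 bases. The labels name no transgene or deletion and do not give the strain, age or sex of the mice, the time after surgery, or whether a library is 1 animal, so the p-values speak of the spread among these 12 libraries only.

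Clustered protocadherins are membrane proteins with cadherin repeats outside the cell, and each isoform binds the same isoform on a neighbouring cell. In the alpha and gamma clusters every gene has its own variable exon and promoter, and that exon is spliced to constant exons shared by the whole cluster, whereas beta genes have no constant exons. A neuron expresses a small and largely random choice of the alternate isoforms, set with the help of DNA methylation and of looping by CTCF and cohesin, while the C-type isoforms at the cluster ends are chosen less at random. The mixture marks a neuron's own branches, and the family is known in the brain for dendrite self-avoidance, axon targeting and neuron survival. Bulk tissue averages over many cells, so the choice made by single neurons was not measured, and fewer cells of a type cannot be told apart from less RNA per cell.

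The clusters lay in a row on chromosome 18 of the mm10 build, all on the plus strand, in the GENCODE M21 annotation. The alpha cluster ran from 36930184 to 37187661, the beta cluster from 37264938 to 37524479 and the gamma cluster from 37661793 to 37841873. Because alpha and gamma genes share their constant exons, the median length of exon that overlapped no exon of any other counted gene was 2479.5 bases in alpha and 2607.5 in gamma members, of a median of 5347 and 5049.5 exon bases in all. For beta members the unshared and total medians were both 3718 bases. The sources used here do not say how reads that fit several genes were counted or whether strand was used in counting. The library kit does not mark strand. Variable exons also resemble each other: 45 of 53 members held at least 1 window of 50 bases that also stands in a transcript of another gene, and the share of such windows reached 25.5% in Pcdha7, mostly with Pcdha8. The 5 C-type members and the gamma A members Pcdhga1, Pcdhga7 and Pcdhga11 had 0 shared windows. Values of the other members may therefore hold reads of another gene, such as a close relative.

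The 4 genes of the families that were no members lay below the minimum. Pcdhb1 averaged 6.75 counts, just under the limit, where Pcdha8, the lowest member, averaged 13.75. Pcdha4 averaged 4.25 counts with 404 bases of unshared exon, because 2410 of its exon bases also belong to Gm42416, a read-through transcript that spans the clusters and had 0 counts in every library. Pcdhga10 had 0 counts in all 12 libraries and 0 bases of unshared exon, since 2613 of its exon bases also belong to Gm26672 on the opposite strand. Pcdha11 (ENSMUSG00000102206) shared 2486 exon bases with the antisense gene Gm10545. Without strand, a read on the exons of Pcdhga10 always fits another counted gene too, so its 0 counts cannot be read as its expression. Whether the low counts of Pcdhb1, Pcdha4 and Pcdha11 came from expression or from the counting was not tested. The member ENSMUSG00000007440 is called Pcdha10 here, as in the authors' deposited table, although GENCODE M21 gives both it and ENSMUSG00000102206 the symbol Pcdha11.

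Levels of the members, as TMM-scaled CPM (counts relative to the library total) divided by kilobases of unshared exon, covered a wide range, and 4 genes stood at its top. Pcdhgc5, a C-type isoform known to bind a GABA-A receptor subunit, had the highest level with 19.7 CPM per kb over the 12 libraries. Pcdhgc3, a C-type isoform known for dendrite growth through Axin1, followed with 13.7 CPM per kb. Pcdhac2, the C-type isoform that serotonergic axons need to space themselves, had 10.9 CPM per kb, and Pcdhga11 had 10.01. With all exons as the length, Pcdhgc5 still ranked 1, Pcdhac2 ranked 2, Pcdhgc3 ranked 3 and Pcdhga11 ranked 9. Pcdhgc4, the C-type isoform that neuron survival depends on, had 3.88 CPM per kb and Pcdhac1, the other alpha C-type, 1.45. The lowest level was 0.215 CPM per kb, in Pcdha8.

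The gamma cluster made up 60.2% of the summed level per length of all members, the beta cluster 25.3% and the alpha cluster 14.5%. With all exons as the length the shares were 48.8% for gamma, 39.9% for beta and 11.3% for alpha. That length includes the constant exons of alpha and gamma genes, and beta genes have none. Pcdhga10 had 0 counts in all 12 libraries over 4732 exon bases, of which 0 were unshared. No read on the constant exons was therefore counted for it. By the same counting, the length with all exons takes in constant exons that brought alpha and gamma genes no counts. Shares by that length thus set alpha and gamma lower than shares by unshared exon. Pcdhac1 and Pcdhac2 together held 50.0% of the summed level per length of alpha members, and the 3 gamma C-type members held 36.3% of that of gamma members. Among alpha members that are not C-type the level per length ran from 0.215 to 2.57 CPM per kb, the top being Pcdha12. Beta members were more even, from 0.914 CPM per kb in Pcdhb21 to 4.33 in Pcdhb9.

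**Figure D1:**
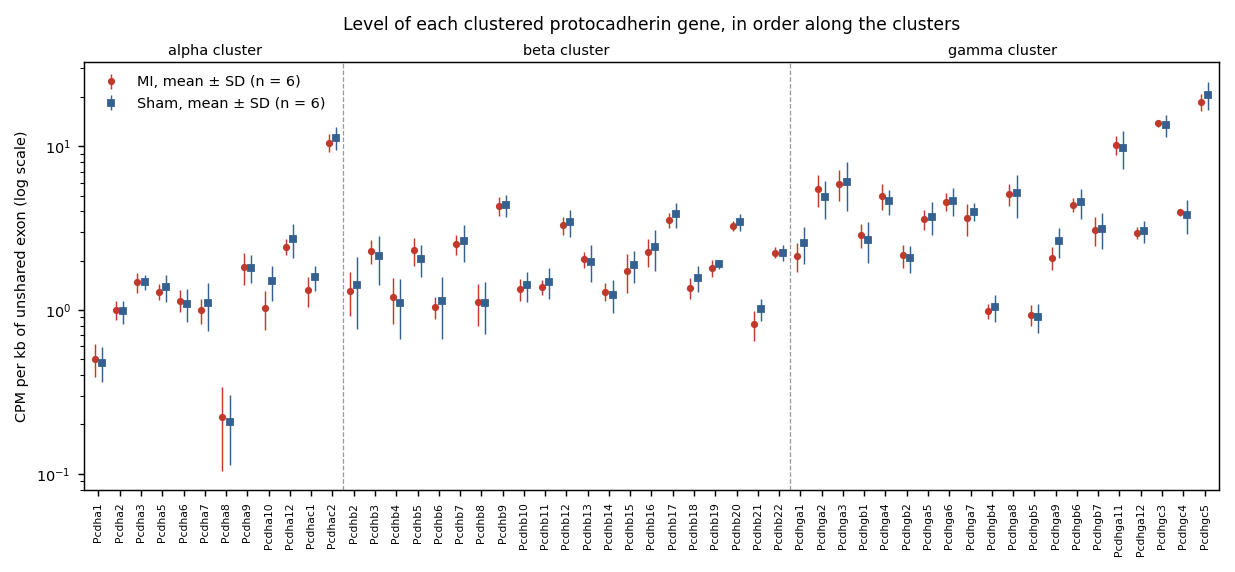
Level of the 53 members in CPM per kilobase of unshared exon (log axis), in order along the alpha, beta and gamma clusters, with MI as red circles and Sham as blue squares (mean ± SD, n = 6 each). Pcdhgc5, Pcdhgc3, Pcdhac2 and Pcdhga11 stand at 10.01 or above over the 12 libraries, and MI and Sham overlap in every member.

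What MI changes among these genes in CA1 was asked by comparing MI with Sham across all genes, and no member passed the test. The values of MI and Sham libraries overlapped in every alpha, beta and gamma gene, and the 3 clusters as sums differed between the groups by less than the spread between libraries. The nearest to a difference were Pcdha10 and Pcdhga9, both with lower means in MI. All 53 members were among the 16829 genes kept by the filter on low counts. In edgeR's quasi-likelihood test, Benjamini-Hochberg adjusted, 0 of 53 members were called at an adjusted p under 0.05, where 0% of all genes were called. At an unadjusted p under 0.05 there were 2 members (3.77%), both lower in MI, against 7.55% of all genes, of which 3.59% were lower and 3.95% higher. DESeq2 called 0 members, with 2 at an unadjusted p under 0.05 (7.75% of all genes), and it called 10 of all genes (0.0594%).

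Of the 53 log2 fold changes, 20 were positive and 33 negative, with a median of -0.04, where 52.4% of all genes were negative and their median was -0.01. Without Sham 6, the library with the most dentate gyrus markers, 24 were negative, and without Sham 1 and Sham 6 together 35 were. The log2 fold change was under 0.1 in size in 30 members and under 0.2 in 48. Its standard error (SE) ran from 0.08 to 0.36 with a median of 0.14. Differences of about that size, and also larger ones, could not be resolved in most members. Pcdha10, at -0.54 (SE 0.20), had an adjusted p of 0.597 in edgeR's quasi-likelihood test, and the smallest adjusted p of all genes was also 0.597. MI and Sham libraries overlapped in 53 of 53 members, and 0.41% of all genes had groups that did not overlap. The median biological coefficient of variation was 16.6% over the members and 11.3% over all genes.

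**Figure D2:**
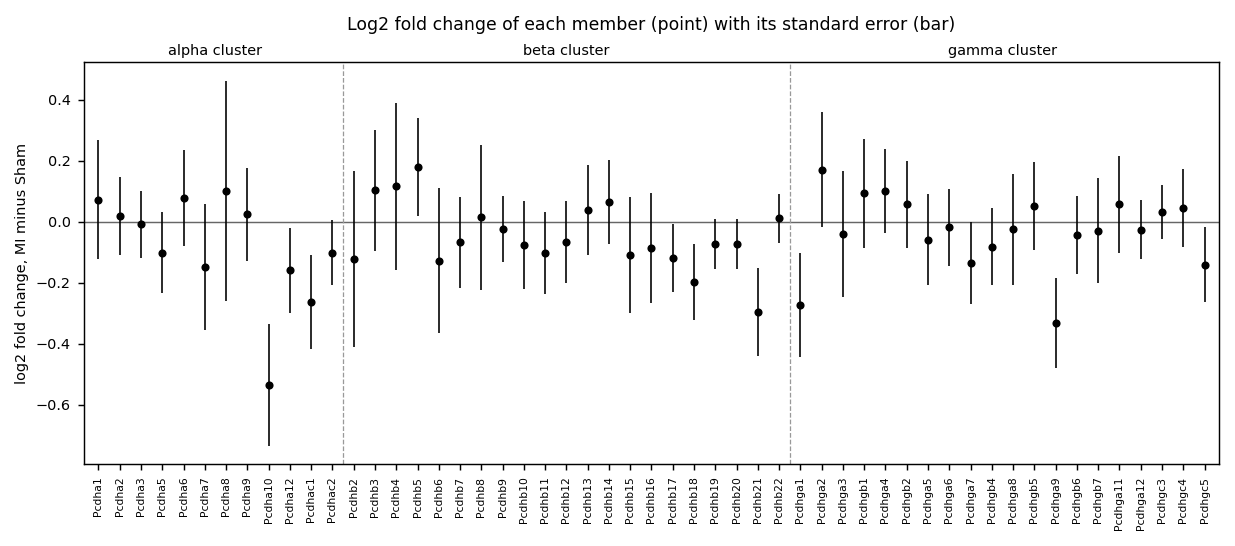
Log2 fold change of each member, MI minus Sham, with its standard error from edgeR's quasi-likelihood fit, in order along the 3 clusters. Pcdha10 at -0.54 and Pcdhga9 at -0.33 are the lowest points, Pcdhb5 at 0.18 is the highest, and 30 of 53 points lie within 0.1 of zero.

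The alpha cluster as a sum averaged 62.3 ± 6.44 CPM in MI and 67.2 ± 8.46 CPM in Sham (n = 6 each, SD). The MI libraries held 51.5, 70.8, 61.9, 62.5, 60.7 and 66.4 CPM in the order of their numbers, and the Sham libraries 54.0, 69.3, 70.0, 63.5, 79.8 and 66.6 CPM. MI 1 and Sham 1 were the lowest of their groups and Sham 5 the highest of all, and 1 of 6 MI libraries exceeded the median of Sham. The difference of mean log2 CPM was -0.11, within the SD of 0.17 between libraries of a group. It was -0.13 among the 6 libraries with more counts of Y-linked genes (the Y-linked set) and -0.08 among the 6 with more of Xist, which coats the inactive X chromosome (the Xist set). Without Sham 1 and Sham 6 it was -0.18. Of 12 alpha members 5 had a positive and 7 a negative log2 fold change, with a median of -0.06.

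Pcdha10 (ENSMUSG00000007440, 37005203 to 37187657), an alternate alpha isoform, ran from 1.47 over a median of 2.60 to 3.34 CPM in MI, and from 2.90 over 3.58 to 5.17 CPM in Sham. All 6 MI libraries were below the median of Sham, but MI 2 and MI 5 lay within the range of Sham. Its log2 fold change was -0.54 (SE 0.20, unadjusted p = 0.0184, adjusted p = 0.597 in edgeR's quasi-likelihood test, Benjamini-Hochberg adjusted), and over the 25 other settings it ran from -0.65 to -0.39. It had a mean of 81.75 counts, and 15.3% of its windows of 50 bases also stood in another gene's transcript, as often in ENSMUSG00000102206 as in its antisense neighbour Gm10545.

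The alpha C-type genes also overlapped between the groups. Pcdhac1 (37090013 to 37187657) ran from 2.31 over a median of 3.32 to 4.35 CPM in MI, and from 3.14 over 4.18 to 4.80 CPM in Sham. The log2 fold change of Pcdhac1 was -0.26 (SE 0.15), and 1 of 6 MI libraries exceeded the median of Sham. Pcdhac2 (37143503 to 37187657), the alpha gene with the most counts, ran from 25.7 over a median of 31.8 to 37.2 CPM in MI, and from 26.6 over 33.9 to 42.3 CPM in Sham. Its log2 fold change of -0.10 was smaller than its SE of 0.11, and it was -0.03 without Sham 5, -0.05 without MI 1 and -0.17 without Sham 1. Markers of serotonergic neurons, in which Pcdhac2 is best known, were near the floor: the sum of Tph2, Slc6a4 and Fev was 0.912 to 1.54 CPM in MI and 0.756 to 2.31 CPM in Sham. That sum was mostly Tph2, since Slc6a4 reached at most 0.111 CPM and Fev 0.141 CPM. Serotonergic axons in the tissue were not measured.

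Beta genes, which lack the constant exons and act together with alpha and gamma proteins in the recognition complexes, summed to 169 ± 20.1 CPM in MI and 174 ± 27.6 CPM in Sham (n = 6 each, SD). The MI libraries held 144, 181, 146, 178, 172 and 194 CPM, and the Sham libraries 155, 150, 150, 174, 202 and 213 CPM. Each group held libraries near 150 and libraries near 190 or above, and 4 of 6 MI libraries exceeded the median of Sham. Libraries of the Xist set ran from 172 to 213 CPM. Those of the Y-linked set ran from 144 to 155 CPM, except MI 4 at 178. The difference of mean log2 CPM was -0.04, against an SD of 0.20, and it was 0.03 in the Y-linked set and -0.10 in the Xist set. Of 21 beta members 7 had a positive and 14 a negative log2 fold change, with a median of -0.07, and without Sham 6 there were 9 negative and a median of 0.02.

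Pcdhb21 (37513621 to 37518325) had the smallest p of the beta members. It ran from 2.48 over a median of 3.61 to 4.55 CPM in MI, and from 3.64 over 4.19 to 5.12 CPM in Sham, and 1 of 6 MI libraries exceeded the median of Sham. Its log2 fold change was -0.30 (SE 0.14), with an unadjusted p of 0.0594 and an adjusted p of 0.681 in edgeR's quasi-likelihood test, Benjamini-Hochberg adjusted. Pcdhb18 (37489465 to 37494505) ran from 5.47 over 7.12 to 7.74 CPM in MI, and from 6.61 over 7.49 to 10.6 CPM in Sham. Sham 6 was its highest library, and the log2 fold change was -0.20 (SE 0.12), or -0.10 without Sham 6. Pcdhb17 (37484795 to 37489454), the beta gene with the most counts, ran from 13.9 over 16.6 to 18.7 CPM in MI, and from 14.6 over 17.4 to 22.0 CPM in Sham, a log2 fold change of -0.12 (SE 0.11), or -0.06 without Sham 6.

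The gamma cluster summed to 280 ± 25.3 CPM in MI and 290 ± 48.6 CPM in Sham (n = 6 each, SD). The MI libraries held 237, 302, 278, 298, 267 and 297 CPM, and the Sham libraries 216, 276, 284, 278, 351 and 337 CPM. Sham 1 was the lowest and Sham 5 the highest of the 12, so all MI libraries lay inside the range of Sham. The difference of mean log2 CPM was -0.04, against an SD of 0.20, and it was 0.07 in the Y-linked set and -0.15 in the Xist set. Of 20 gamma members 8 had a positive and 12 a negative log2 fold change, with a median of -0.03. Single libraries turned this: 7 were negative with a median of 0.04 without Sham 6, 7 with 0.02 without MI 1, and 17 with -0.10 without Sham 1. The gamma A members split into 3 positive and 8 negative, and the gamma B members into 3 and 3.

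**Figure D3:**
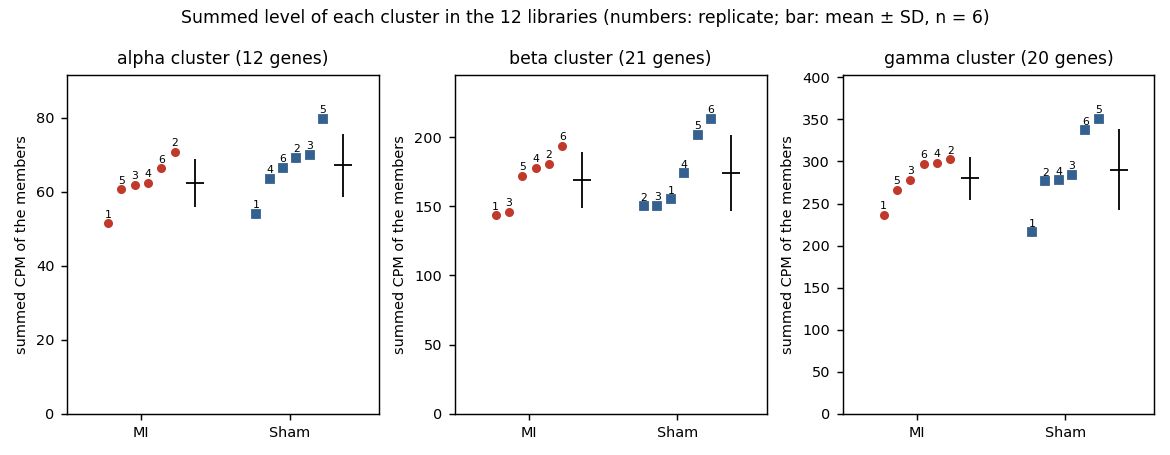
Summed CPM of the members of each cluster in every library, MI as red circles and Sham as blue squares, with the replicate number beside each point and the mean ± SD (n = 6) as a bar. The groups overlap in all 3 clusters, and Sham 1 with MI 1 lies low and Sham 5 high in the alpha and gamma panels.

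Pcdhga9 (37736936 to 37841870), an alternate gamma A isoform, was the other member at an unadjusted p under 0.05. It ran from 5.63 over a median of 7.63 to 8.28 CPM in MI, and from 6.09 over 9.89 to 10.9 CPM in Sham. All 6 MI libraries were below the median of Sham, while Sham 1 and Sham 4 lay within the range of MI. Its log2 fold change was -0.33 (SE 0.15, unadjusted p = 0.0416, adjusted p = 0.642 in edgeR's quasi-likelihood test, Benjamini-Hochberg adjusted), and over the 25 other settings it ran from -0.45 to -0.24. Pcdhga1 (37661793 to 37841873), at the upstream end of the cluster, ran from 4.86 over 5.82 to 7.89 CPM in MI, and from 4.89 over 7.27 to 9.75 CPM in Sham, a log2 fold change of -0.27 (SE 0.17), or -0.17 without Sham 5.

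Among the gamma C-type genes, Pcdhgc5 (37819513 to 37841873) had the most counts of any member. It ran from 71.5 over a median of 89.05 to 97.4 CPM in MI, and from 75.4 over 93.4 to 124 CPM in Sham. The log2 fold change of Pcdhgc5 was -0.14 (SE 0.12), or -0.05 without Sham 5, and 2 of 6 MI libraries exceeded the median of Sham. Sham 5 and Sham 6 lay above all MI libraries, and the other Sham libraries lay among them.

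Pcdhgc3 (37806364 to 37841873) averaged 25.1 ± 1.17 CPM in MI and 24.6 ± 3.80 CPM in Sham, and Sham 1 and Sham 6 were its lowest and highest libraries. The log2 fold change of Pcdhgc3 was 0.03 (SE 0.09). Pcdhgc4 (37815079 to 37841873) ran from 12.7 over a median of 13.6 to 14.6 CPM in MI, and from 9.83 over 11.9 to 17.6 CPM in Sham, a log2 fold change of 0.05 (SE 0.13). The Sham median of Pcdhgc4 was below all 6 MI libraries, yet Sham 3 and Sham 4 lay above all MI libraries and the other 4 Sham libraries below them. The SD between libraries was larger in Sham than in MI in the sum of each cluster and in each gamma C-type gene, and that difference in spread was not tested.

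The balance within the clusters was similar in the groups. C-type genes held 56.4 ± 1.65% of alpha counts in MI and 56.7 ± 1.86% in Sham (n = 6 each, SD). They held 44.7 ± 2.05% of gamma counts in MI and 46.0 ± 2.43% in Sham, and 1 of 6 MI libraries exceeded the median of Sham of that share. Pcdhgc5 alone held 30.8 ± 2.05% of gamma counts in MI and 32.7 ± 3.07% in Sham. The gamma cluster held 54.8 ± 1.45% of all member counts in MI and 54.5 ± 2.01% in Sham. Each of these differences was smaller than the SD between libraries.

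The authors' deposited tables list 4 members, all among the 517 genes lower in MI and 0 among the 542 higher ones. The log2 fold changes in the authors' deposited table are -0.25 for Pcdhgc5, -0.27 for Pcdhga9, -0.16 for Pcdhga8 and -0.24 for Pcdha10. The adjusted p-values in the authors' deposited table are 0.0158 for Pcdhgc5, 0.0359 for Pcdhga9, 0.0368 for Pcdhga8 and 0.0438 for Pcdha10. Of all 16829 genes tested here, 2.97% are among the lower genes of the authors' deposited table and 3.13% among the higher ones. For Pcdhga8 (37725706 to 37841873) the authors' deposited table gives values of 8.51 to 8.72 in MI and 8.73 to 8.93 in Sham on a log2 scale, which do not overlap. In the deposited counts Pcdhga8 ran from 7.98 over a median of 10.9 to 12.6 CPM in MI, and from 6.36 over 10.6 to 15.2 CPM in Sham, a log2 fold change of -0.03 (SE 0.18). The counts of Sham libraries therefore lay on both sides of those of MI, while the tabled values were narrower. The sources used here do not say how the tabled values were made.

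Libraries of the same group differed, and within a library many members lay on the same side of the group mean. In Sham 1 only 5 of 53 members lay above the mean of their own group, and in MI 1 only 3, with median deviations of -0.34 and -0.26 on the log2 scale. On the high side MI 2 had 47 members above the mean of its group, Sham 6 had 43, Sham 5 had 42 and MI 6 had 40. Their median deviations were 0.11 in MI 2, 0.31 in Sham 6, 0.26 in Sham 5 and 0.12 in MI 6. The deviation reached the 3 clusters unequally: in Sham 1 the median was -0.45 for gamma and -0.22 for beta members, and in Sham 6 it was 0.40 for beta and 0.11 for alpha members. In MI 3 beta members had a median deviation of -0.23 and gamma members 0.04. The same count was not made over all genes, so these shifts cannot be called particular to the members. Ptk2b, Nckap1 and Pcdh1, which are no members, were also lowest in Sham 1 and highest in Sham 5 or Sham 6. Marcks, by contrast, was highest in Sham 1.

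Across the 12 libraries the deviations of pairs of members from their group means had a median Pearson correlation of 0.65 within the beta cluster, 0.60 within gamma and 0.22 within alpha, and 1165 of all 1378 pairs were positive. These pairs share the same 12 libraries, their depth, scaling and dissection, and close relatives may share reads, so the correlations are a description only.

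Marker genes of cell types also differed between libraries, and some of their extremes fell in libraries where the members deviated. Others did not follow: MI 2, with 47 members above its group mean, held 281 CPM of dentate markers and 1360 CPM of CA1 markers. Both values lay inside the range of the other MI libraries. The sum of 8 dentate granule markers was 117 to 419 CPM in MI and 148 to 1012 CPM in Sham, with Sham 6 at 1012 and the next Sham library at 274. Of these 8 markers 8 were negative in MI against Sham, but without Sham 6 only 3 were, and the sum averaged 248 ± 110 CPM in MI (SD, n = 6) and 209 ± 46.2 CPM in the other Sham libraries (SD, n = 5), so the direction rested on Sham 6. The sum of 8 CA1 pyramidal markers was 1180 to 1551 CPM in MI and 701 to 1855 CPM in Sham, lowest in Sham 1 and highest in Sham 5, and 7 of 8 were positive. The sum of 8 markers of meninges and fibroblasts was 102 to 198 CPM in MI and 74.8 to 377 CPM in Sham, highest in Sham 1, with 8 of 8 negative and 0 of 6 MI libraries above the median of Sham. The sum of 8 oligodendrocyte markers was 5007 to 6342 CPM in MI and 2720 to 5528 CPM in Sham, with Sham 1, Sham 2 and Sham 3 the lowest, and 8 of 8 were positive with 6 of 6 MI libraries above the median of Sham. None of these 32 markers, CA1 markers included, was at 0 counts in any library, and 0 of them passed the adjusted threshold in edgeR. Lists for other cell types were also summed. The 8 interneuron markers summed to 926 to 988 CPM in MI and 730 to 1012 CPM in Sham, lowest in Sham 6. Of these 5 were positive and 3 negative, and 6 of 6 MI libraries exceeded the median of Sham. Astrocyte markers were highest in Sham 6. The 6 choroid plexus markers summed to 8.95 CPM in Sham 1, the lowest library, and 42.2 CPM in Sham 5, the highest. Most of that sum was Kl, at 6.78 to 37.3 CPM over the 12 libraries. Ttr reached 6.60 CPM, and 3 of the 6 markers were at 0 counts in a library, so the sum speaks mainly of Kl. CA2 and CA3, precursor, endothelium and microglia markers were summed too, and MI and Sham overlapped in every sum. The part of these cells in the values of the members was not tested. The library totals were between 20764133 counts (Sham 1) and 35643127 (Sham 5). The Y-linked set was MI 1, MI 3 and MI 4 with Sham 1, Sham 2 and Sham 3. In the Xist set the median deviation of beta members was positive in every library, from 0.03 in Sham 4 to 0.40 in Sham 6. In the Y-linked set that median was negative except in MI 4, at 0.09. Whether the set plays a part in the spread was not tested.

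**Figure D4:**
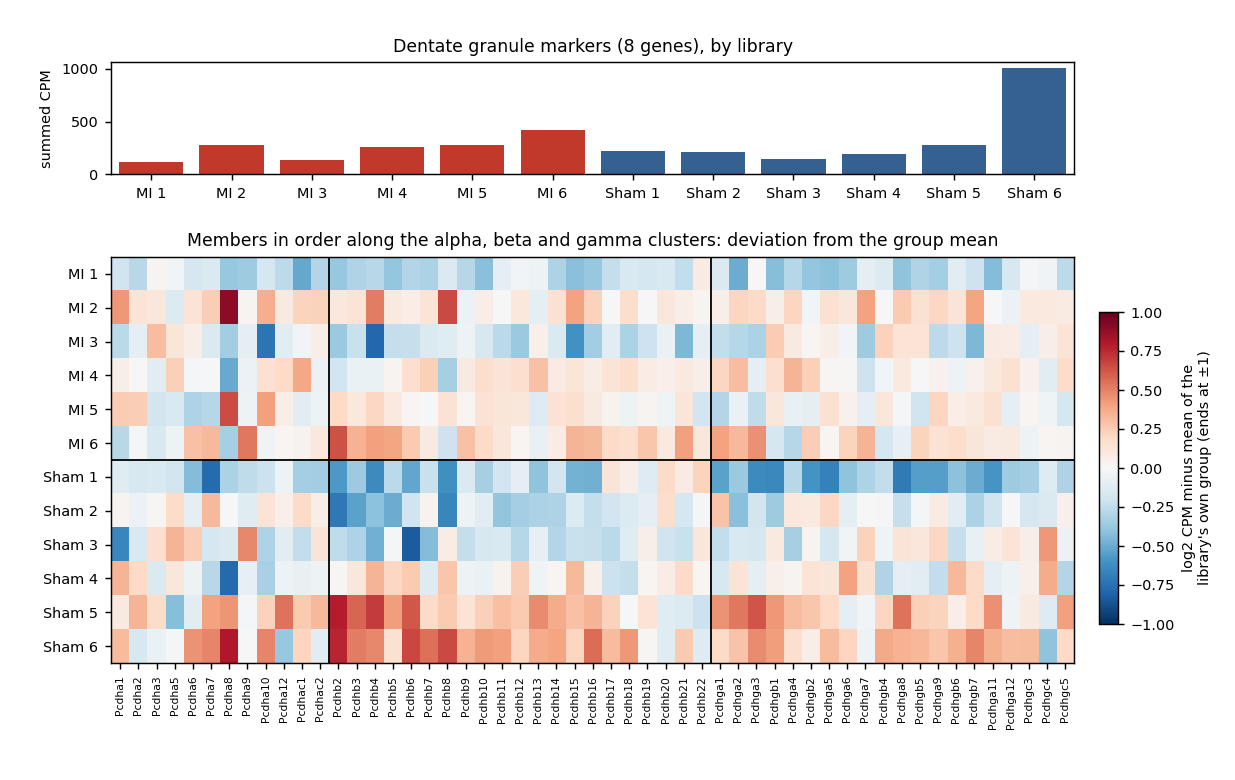
Top, summed CPM of 8 dentate granule markers in each library, MI in red and Sham in blue. Bottom, deviation of each member (column, in order along the clusters) from the mean of the library's own group in log2 CPM, with the colour scale ending at ±1, showing rows of mostly one colour in MI 1 and Sham 1 (low) and in MI 2, MI 6, Sham 5 and Sham 6 (high).

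The spread between libraries also differed along the beta cluster. The SD of log2 CPM between libraries of a group had a median of 0.45 over the 7 genes from Pcdhb2 to Pcdhb8, with a range of 0.28 to 0.54. Over the 7 genes from Pcdhb16 to Pcdhb22 the median was 0.21, with a range of 0.14 to 0.35, and over the 7 between them it was 0.26. Counting error alone at the mean counts of these genes had a median of 0.14 in the upstream and 0.08 in the downstream stretch, and the part of counting in the difference between the stretches was not tested. The stretches were picked with these values known, and no test was made.

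Pcdhb2, the first beta member in order along the cluster, ran from 2.72 over a median of 3.48 to 5.58 CPM in MI. In Sham it ran from 2.21 over 3.39 to 6.39 CPM. Sham 5 and Sham 6, at 6.39 and 6.30 CPM, lay above all other libraries, and MI 6 came next. Pcdhb22, at the other end of the cluster, ran from 12.04 over 14.2 to 14.9 CPM in MI, and from 11.7 over 13.7 to 16.0 CPM in Sham, with Sham 1 the highest and Sham 5 the lowest library. Their log2 fold changes were -0.12 (SE 0.29) for Pcdhb2 and 0.01 (SE 0.08) for Pcdhb22.

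**Figure D5:**
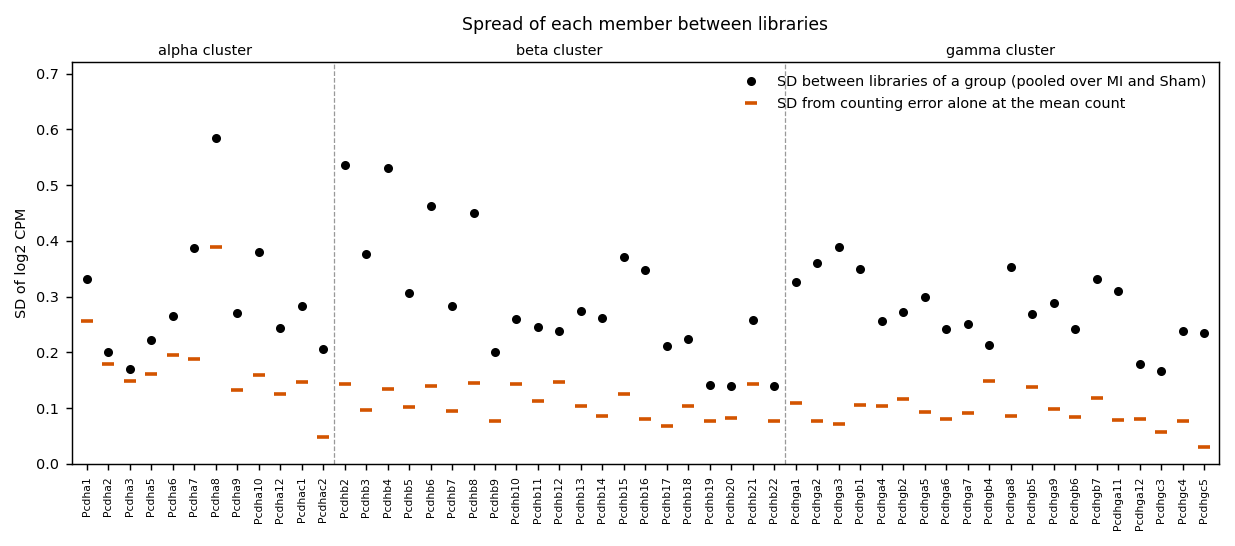
SD of log2 CPM between libraries of a group, pooled over MI and Sham (black points), and the SD that counting error alone gives at the mean count (orange dashes), for each member in order along the clusters. Points from Pcdhb2 to Pcdhb8 lie between 0.28 and 0.54, and Pcdhb19, Pcdhb20 and Pcdhb22 lie at 0.14.

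Genes that control the choice of protocadherin isoforms did not pass the test either. Over all genes tested 52.4% of log2 fold changes were negative, their median was -0.01, and 0% were called. Genes of a list share the same 12 libraries, so their directions are not independent. The 10 genes of CTCF and cohesin, which loop enhancers to the chosen promoters, had 0 positive and 10 negative log2 fold changes. Their median was -0.06, and 0 were called. Over the 25 other settings between 5 and 10 of them were negative, and the median ran from -0.09 to -0.0021. Without Sham 6 there were 7 negative with a median of -0.02. The 14 genes of silencing and DNA methylation had 0 positive and 14 negative values with a median of -0.06, and between 11 and 14 were negative over the other settings. These 24 log2 fold changes ran from -0.21 to -0.02, with SEs of 0.03 to 0.16. In the second group Morc2a, a factor that silences chromatin, averaged 64.1 ± 1.40 CPM in MI and 68.7 ± 3.61 CPM in Sham (SD, n = 6 in each group), a log2 fold change of -0.10 (SE 0.04) with an adjusted p of 0.623 in edgeR's quasi-likelihood test, Benjamini-Hochberg adjusted.

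The 21 signalling and processing partners of the proteins split into 12 positive and 9 negative, with 0 called, where 52.4% of all genes were negative. Marcks, a membrane-bound protein kinase C substrate that acts downstream of gamma protocadherins in dendrite growth, ran from 138 over a median of 146 to 163 CPM in MI, and from 145 over 170 to 225 CPM in Sham. All 6 MI libraries were below the median of Sham, and its log2 fold change was -0.28 (SE 0.10, adjusted p = 0.597 in edgeR's quasi-likelihood test, Benjamini-Hochberg adjusted). It was -0.47 in the Y-linked set and -0.06 in the Xist set, the ends of its range over the 25 other settings. Ret, a receptor kinase that binds and phosphorylates protocadherins, ran from 5.06 over 6.19 to 7.38 CPM in MI, and from 3.30 over 4.27 to 7.18 CPM in Sham. The Sham median was below all 6 MI libraries, with Sham 3 and Sham 4 inside their range, and the log2 fold change was 0.45 (SE 0.18, adjusted p = 0.614 in the same test).

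Protein-coding genes within 500 kb of the clusters were also tested, as neighbours on the chromosome. Of 32 such genes 26 were tested. A positive log2 fold change was found in 15 and a negative one in 11, with a median of 0.01, and 0 were called. Over all genes 52.4% were negative and 0% were called. Ndufa2, a subunit of respiratory complex I, had the smallest p and averaged 48.8 ± 1.88 CPM in MI and 44.2 ± 3.04 CPM in Sham (SD, n = 6 in each group), a log2 fold change of 0.14 (SE 0.05). Rell2 had 0.18 (SE 0.08) and Hbegf, a growth factor of the EGF family, -0.11 (SE 0.06).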

How the data were processed

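RNA of CA1 tissue was measured in 12 libraries (6 MI, 6 Sham), grouped by the labels. The authors deposited whole-number read counts per Ensembl gene for each library, not normalized. Per the submitters' processing notes, FastQC 0.11.5, STAR 2.5.2b, featureCounts of Subread 1.5.1 and the mm10 build were used, without settings. The library kit, TruSeq RNA v2 per the labels, does not mark strand. The authors also deposited a table of higher and a table of lower genes with log2 fold changes, adjusted p-values and log2 values per library.

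Genes were filtered by filterByExpr, scaled by TMM and compared by the robust two-sided quasi-likelihood test of edgeR 4.0.16 under R 4.3.3, with Benjamini-Hochberg adjustment over 16829 genes and a threshold of 0.05. CPM are counts relative to the scaled library total, log2 CPM has a prior count of 2, and an SD of log2 CPM is pooled within groups. The procedure was tested on simulated data. Alternatives were DESeq2 1.42.0, limma-voom (limma 3.58.1), 1 surrogate variable (sva 3.50.0), other scalings, filters and windows, a sex-linked covariate or set, a replicate block, and each library left out. Gene lengths, positions and overlaps came from GENCODE M21, which matched 48349 of 48709 IDs. No library pair of a group was a duplicate (chi-square per degree of freedom of 6.22 or more over 30 pairs). Members and lists were chosen with earlier results of these data known. Given in full, by rule, are per cluster the member with the most counts, the 2 with the smallest p, the C-type members and those in the authors' tables, and of the regulators and neighbours the 3 with the smallest p. Further members named were picked with their values known. No sequence is printed.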

Additional observations from a re-analysis of the deposited data

How the results depend on the processing

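The count of members past the adjusted threshold was 0 in the main comparison and in each of 25 alternatives, among them DESeq2, limma-voom, each library left out and the Y-linked set alone, where 211 of all genes were called. The members at an unadjusted p under 0.05 numbered 0 to 6 over these alternatives, 0 in limma-voom with sample weights and 6 with 1 surrogate variable, where the main comparison had 2. Correlations of same-numbered libraries ran from -0.350 to 0.405. The best-matching Sham library had the same number for MI 1, MI 3 and MI 6, and another number for MI 2, MI 4 and MI 5. These values cannot show whether libraries were handled in pairs. With the replicate block, 3 members were at an unadjusted p under 0.05. The cluster sums stayed within 1 SD of their main difference under each of 22 alternatives, and left-out libraries gave -0.17 to -0.05 for alpha, -0.08 to 0.02 for beta and -0.12 to 0.02 for gamma, so beta and gamma changed sign. Negative members numbered 24 to 42 with a library left out, 18 of 52 in the Y-linked set, where beta and gamma medians were 0.09 and 0.08, and 22 in limma-voom.

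Values near zero changed sign. Pcdhga8 ran from -0.14 to 0.10 with a library left out, and had 0.21 in the Y-linked set, 0.048 in limma-voom and 0.010 with the replicate block. Pcdhgc3 ran from -0.030 to 0.097 with a library left out and had -0.083 in the Xist set. Pcdhgc4 ran from -0.028 to 0.14 with a library left out, and had -0.078 without Sham 1 and Sham 6, -0.031 in the Y-linked set and -0.073 in limma-voom. Pcdhgc5 had 0.00054 in the Y-linked set, and Pcdhb17 had 0.041 in limma-voom. The cause was not tested. Pcdha10, Pcdhga9, Pcdhac1, Pcdhac2, Pcdhb18, Pcdhb21 and Pcdhga1 stayed negative in 25 of 25 alternatives, with no adjusted p below 0.25. Ranks of level by length, recomputed with lengths chosen after the data were seen, kept Pcdhgc5 at 1, while Pcdhga11 ranked 9 and Pcdhb9 ranked 4 with all exons. The SE was largest, at 0.36, in Pcdha8, which has a mean of 13.75 counts and an SD of 0.58 between libraries, against 0.39 from counting alone.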
